A study of Homo sapiens with 6 samples.

Results

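Semaphorins, ephrins, Slits and netrins are guidance cues, first known for steering growing axons, and plexins, neuropilins, Eph receptors, Robos, UNC5 proteins and DCC are the receptors that read them. The genes described here are those whose symbols belong to these families, chosen by name and not by their values. They number 59 of the 11963 genes measured on the arrays: 18 semaphorins, 10 plexins and neuropilins, 10 Eph receptors, 8 ephrins, 6 Slits and Robos, and 7 genes of the netrin, UNC5 and DCC group. One of the last 7, UNC50, was taken up through the first letters of its symbol and encodes a Golgi membrane protein, not a netrin receptor.

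The arrays were Affymetrix arrays hybridised with biotin-labelled total RNA from E1 and HCT116, with 3 arrays for each. E1 is a metastatic colon cancer line derived in vivo, for which the cell line field of the labels also reads HCT116. HCT116 is an established human colon cancer line that the labels call poorly metastatic. The labels name no treatment, clone number, host or site of derivation, and they do not say whether the 3 arrays of a line came from separate cultures, so the p-values reflect array-to-array spread alone, and that spread may be technical. In such bulk RNA, fewer cells expressing a gene and less RNA per cell cannot be told apart.

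Secreted class 3 semaphorins act through neuropilins, which bind the ligand, and plexins, which carry the signal to small GTPases and the cytoskeleton; most other semaphorins bind plexins directly. Ephrins are anchored in the membrane of 1 cell and signal to Eph receptor tyrosine kinases on its neighbour, and in the intestinal epithelium of the mouse EphB receptors and ephrin-B ligands keep crypt cell compartments apart. Slits signal through Robos. Netrins signal through DCC, named for its loss in colorectal cancers, and UNC5 proteins.

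Values are probe set intensities on a linear scale. Each log2 fold change is the E1 mean minus the HCT116 mean of log2(intensity + 32), and its standard error (SE) comes from limma, fitted across every gene. A gene was called where its p, adjusted by Benjamini and Hochberg's method across all 11963 genes, was under 0.05. The offset of 32 understates the change of dim genes, and 12 of the 59 genes read below 32 on all 6 arrays, where their levels are read with no order. An intensity depends on the probes, so levels are compared between arrays and not between genes.

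The 3 E1 arrays were unlike each other in their control probe sets. The 3'/5' signal ratio of GAPDH was 0.803 on E1 array 1, 34.1 on E1 array 2 and 71.9 on E1 array 3, against 0.774 to 0.811 on the HCT116 arrays. For this reason the value of E1 array 1 alone against the 3 HCT116 arrays stands beside the results. Any p-value of that fit rests on the spread of the HCT116 arrays and holds none within E1. Of 10 markers of colon epithelium, the summed intensity was 11601 to 14646 on the E1 arrays and 16859 to 19504 on the HCT116 arrays. Of the 10, 0 were called in limma and 2 had an unadjusted p under 0.05; 3 had a positive and 7 a negative log2 fold change, and CDX2 and VIL1 read below 32 on every array. The keratin KRT8 read 2862, 372 and 103 in E1 and 4693, 3169 and 4352 in HCT116, at a log2 fold change of -2.91 (unadjusted p = 0.0270, limma adjusted p = 0.284), with E1 arrays 2 and 3 far below E1 array 1. Its partner KRT18 read 6285, 5677 and 5792 in E1 and 8466, 7509 and 7565 in HCT116, at -0.40 (unadjusted p = 0.0183, limma adjusted p = 0.260), and KRT19 stood at -0.80. EPCAM, with a positive log2 fold change of 0.40, read 1691, 2950 and 3428 in E1 and 1956, 2009 and 1885 in HCT116. Summed intensities of 9 fibroblast markers were 303 to 452 in E1 and 370 to 431 in HCT116, and those of 8 endothelial markers 117 to 197 in E1 and 162 to 175 in HCT116. Those of 7 leukocyte markers were 223 to 272 in E1 and 194 to 315 in HCT116, and those of 12 markers of neurons and glia 1298 to 2414 in E1 and 2200 to 3387 in HCT116, most of it TUBB3. The leukocyte marker PTPRC read at most 15.7 and the endothelial marker CDH5 at most 3.25 on any array. Other markers of these lists were brighter. The leukocyte marker CD3E read 60.2 to 132 and the endothelial marker PECAM1 39.7 to 63.2 over the 6 arrays.

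One guidance gene differed between the lines at the threshold, and it was a ligand. SEMA3A, the secreted semaphorin that collapses growth cones through neuropilin-1 and class A plexins, rose in E1. It was the 1 gene called among the 59, where 0.418% of all genes were called in either direction and 0.217% higher in E1. No guidance gene was called lower in limma, where 0.201% of all genes were, although 5 had an unadjusted p under 0.05 with a lower mean in E1. At that unadjusted level 8 of the 59 genes, or 13.6%, differed, against 15% of all genes. Of these, 3 were higher and 5 lower in E1, where 5.29% of all genes were higher and 9.7% lower. Arrays of the lines did not overlap for 9 of the 59 genes, or 15.3%, against 18.8% of all genes. In 4 of them E1 was higher and in 5 lower, where 8.18% and 10.7% of all genes were. These shares lie near those of the array at large.

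SEMA3A read 309, 280.2 and 563 on E1 arrays 1 to 3, against 58.7, 59.9 and 68.9 on the HCT116 arrays. Every E1 array lay above every HCT116 array. The means were 384 ± 155 in E1 and 62.5 ± 5.59 in HCT116 (SD, n = 3 each), a log2 fold change of 2.08 (SE 0.26, limma adjusted p = 0.0399). With E1 array 1 alone, the array with a GAPDH ratio like that of HCT116, the log2 fold change was 1.85, and with E1 arrays 2 and 3 it was 2.19. The gene has 1 probe set on the array, so no second probe set measures it. The size was steadier than the call, but not every alternative could move it. With 1 probe set, a change of probe set choice, genes fitted, error model or block leaves the value at 2.08. Over 18 alternative analyses the log2 fold change stayed between 1.53 and 2.53, with an unadjusted p of at most 0.00197, while the adjusted p ran from 0.0101 to 0.269 and passed in 9 of the 18. SEMA3A was no longer called when HCT116 array 1, 2 or 3 was left out (adjusted p of 0.254, 0.168 and 0.209), when E1 array 2 was (0.0858), or with E1 array 1 alone (0.164).

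**Figure D1:**
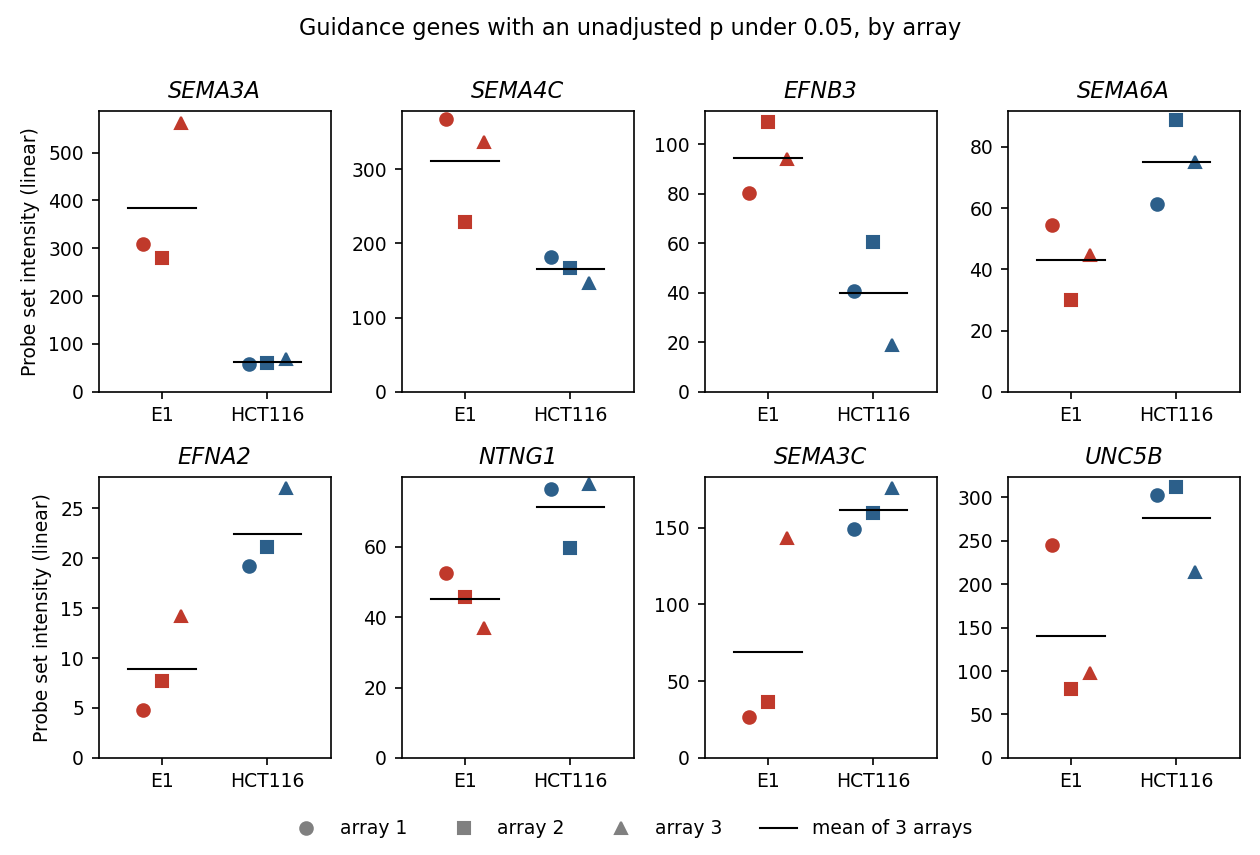
Probe set intensity (linear scale, from 0) of the 8 guidance genes with an unadjusted limma p under 0.05, for the 3 E1 arrays (red) and the 3 HCT116 arrays (blue), with the mean of each line as a bar. In SEMA3A, SEMA4C and EFNB3 the E1 arrays lie above all HCT116 arrays, whereas UNC5B overlaps because E1 array 1 reads 244.5.

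The class 3 semaphorins lie on 2 chromosomes and did not move together. SEMA3A, SEMA3C, SEMA3D and SEMA3E are on chromosome 7, and SEMA3B, SEMA3F and SEMA3G on chromosome 3. SEMA3C, a secreted semaphorin that binds neuropilins and guides cells of the developing cardiac outflow tract in mice, read 26.7, 36.4 and 143 in E1 and 149, 160 and 176 in HCT116. The E1 arrays did not overlap the HCT116 arrays, but E1 array 3 came close to the lowest of them. Its log2 fold change was -1.12 (SE 0.40, unadjusted p = 0.0300, limma adjusted p = 0.292) and -1.72 with E1 array 1 alone. A second SEMA3C probe set also read lower on every E1 array, at 52.0, 38.3 and 40.7 in E1 and 67.4, 57.2 and 62.9 in HCT116, with a log2 fold change of -0.32. SEMA3A and SEMA3C, which share a family and a chromosome, thus had values of opposite sign, of which only that of SEMA3A passed the test.

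SEMA3F, a ligand of neuropilin-2, gave different readings by probe set. The probe set used here read 282, 163 and 208 in E1 and 209, 182 and 180 in HCT116, and the lines overlapped, with a log2 fold change of 0.14 (SE 0.20). Another SEMA3F probe set read 6.40, 4.58 and 9.04 in E1 and 31.7, 25.4 and 46.4 in HCT116, at -0.77, with an unadjusted p of 0.00200 in a limma fit over single probe sets (adjusted p = 0.0970). That probe set was dim in both lines. Of the remaining class 3 genes, SEMA3B read at most 18.9, SEMA3E at most 12.5 and SEMA3D at most 26.1 on any array. SEMA3G read 77.0, 50.1 and 103 in E1 and 59.6, 32.4 and 39.2 in HCT116, where 1 E1 array overlapped.

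Among the transmembrane semaphorins SEMA4C had the smallest p. SEMA4C, a class 4 semaphorin whose receptor is plexin-B2, read 368, 229.4 and 336 in E1 and 182, 168 and 146 in HCT116. The lines did not overlap, and the means were 311 ± 72.7 in E1 and 165 ± 18.0 in HCT116 (SD, n = 3 each). Its log2 fold change was 0.78 (SE 0.20, unadjusted p = 0.00625), which did not pass over all genes in limma (adjusted p = 0.191), and with E1 array 1 alone it was 1.02. The sign was positive under all 18 alternatives, at 0.35 to 1.02. Alternatives that change only the genes fitted, the error model or the block could not alter its value. A second SEMA4C probe set split the E1 arrays, reading 125, 11.7 and 67.1 in E1 and 55.4, 68.1 and 59.8 in HCT116. It had the opposite sign, at -0.08, and none of the alternatives used it alone.

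SEMA6A, a transmembrane ligand of plexin-A2 and plexin-A4 in mice, read 54.4, 29.9 and 44.6 in E1 and 61.4, 88.9 and 75.1 in HCT116. All E1 arrays lay below all HCT116 arrays, with a log2 fold change of -0.52 (SE 0.18, unadjusted p = 0.0255, limma adjusted p = 0.280). With E1 array 1 alone the value was -0.30, and a dimmer second probe set gave -0.19. SEMA4F, whose probe set in use overlapped between the lines, had another one that read 56.5, 68.8 and 47.4 in E1 and 93.1, 97.6 and 96.9 in HCT116. That probe set stood at -0.52, with an unadjusted p of 0.00633 and a limma adjusted p of 0.150 over single probe sets. SEMA6C, read as 13.2, 12.9 and 15.1 in E1 and 12.8, 11.5 and 7.97 in HCT116, did not overlap either, at signals too low to order. Arrays of the lines overlapped for SEMA4A, SEMA4D, SEMA4G, SEMA5A, SEMA6B, SEMA6D and SEMA7A. Over all 18 semaphorins, 9 fold changes were positive and 9 negative, with a median of 0.01, against -0.01 over all genes.

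**Figure D2:**
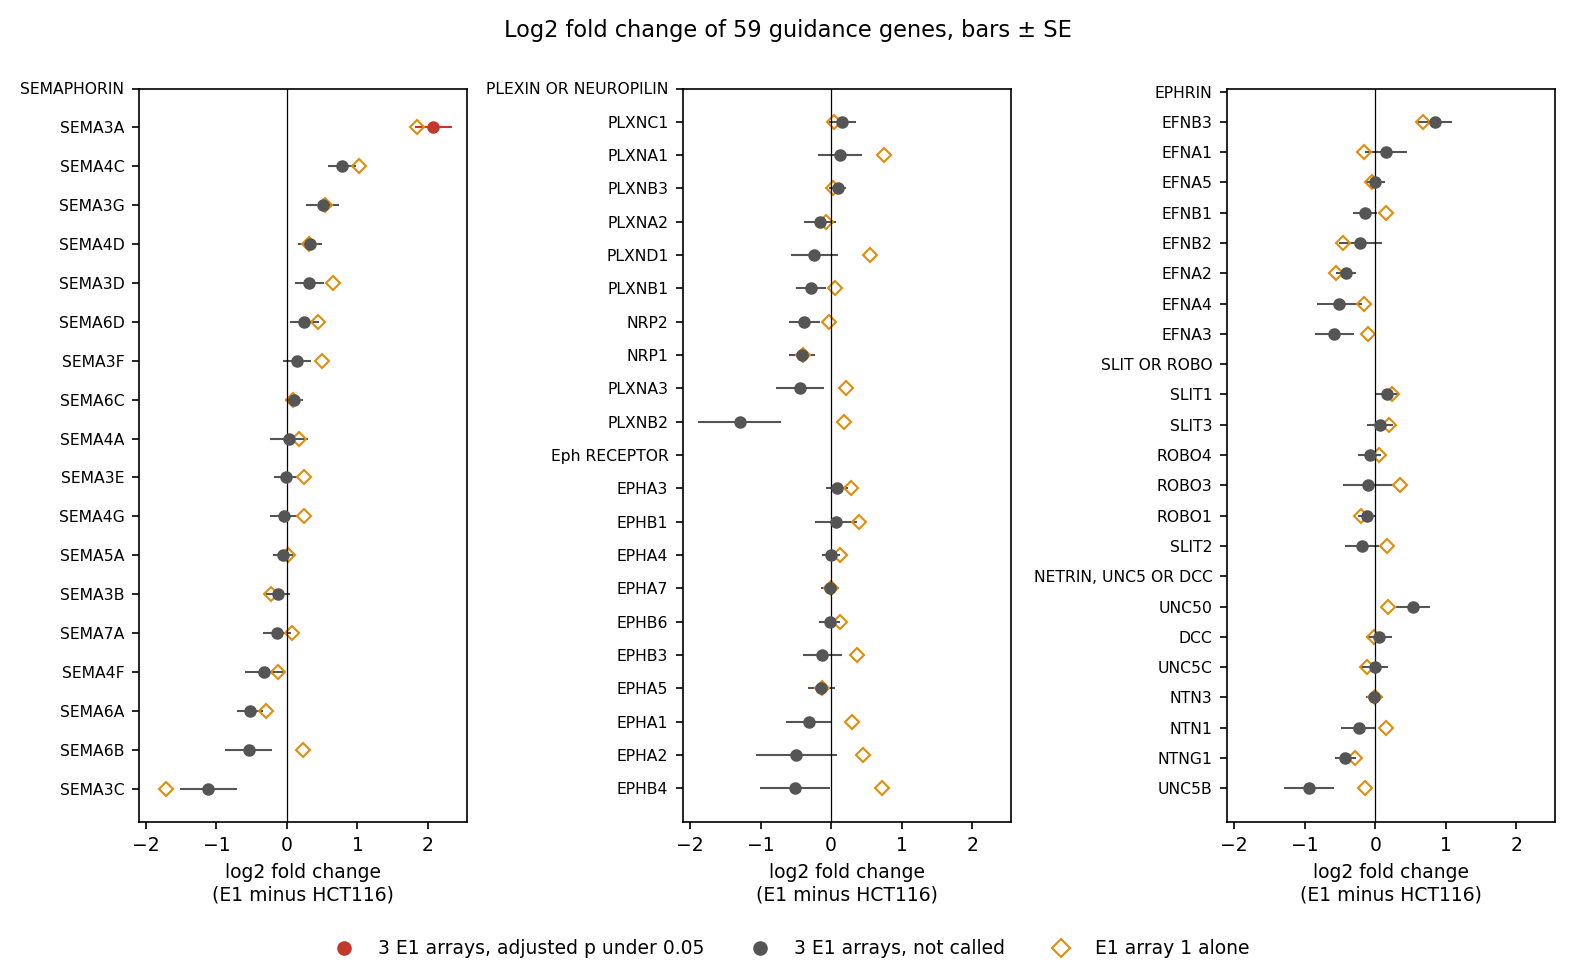
Log2 fold change, E1 minus HCT116, of the 59 genes in 6 families, with 3 E1 arrays (circles, bars are ± SE of the limma fit; red marks an adjusted p under 0.05) and with E1 array 1 alone (open diamonds). SEMA3A, at 2.08, is the red point, and the diamonds of PLXNB2, EPHB4, EPHA2 and PLXND1 lie on the other side of 0 from their circles.

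The receptors of these ligands were not called. NRP1, the neuropilin that binds SEMA3A, read 22.3, 14.9 and 29.2 in E1 and 30.1, 53.4 and 37.4 in HCT116. The lines did not overlap, but E1 array 3 and HCT116 array 1 nearly touched, at a log2 fold change of -0.41 (SE 0.18, unadjusted p = 0.0578). Its other 2 probe sets read at most 7.27 on any array. NRP2, the neuropilin preferred by SEMA3F, read 78.3, 49.1 and 40.3 in E1 and 64.7, 75.1 and 105 in HCT116, with overlap. PLXNA1, which pairs with neuropilin-1 as signalling chain, read 261, 93.2 and 154 in E1 and 160, 139 and 128 in HCT116. Its log2 fold change was 0.13 (SE 0.31) with 3 arrays and 0.75 with E1 array 1 alone, while a second probe set stood at -0.31. PLXNA2 read 23.0, 15.6 and 21.9 in E1 and 10.2, 43.6 and 28.9 in HCT116, overlapping throughout. Of the 10 plexins and neuropilins, 0 had an adjusted or an unadjusted p under 0.05 in limma.

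PLXNB2, the plexin that binds SEMA4C, split the E1 arrays more widely than any other of the 59 genes. It read 818 on E1 array 1, 162 on E1 array 2 and 138 on E1 array 3, against 714, 715 and 711 on the HCT116 arrays. E1 array 1 was thus slightly above HCT116, and E1 arrays 2 and 3 were far below it. The log2 fold change was -1.30 (SE 0.59, unadjusted p = 0.0675) with all arrays, 0.19 with E1 array 1 alone and -2.04 with E1 arrays 2 and 3, where it was called (limma adjusted p = 0.00157). PLXND1, a vascular plexin that binds SEMA3E directly and SEMA3C through neuropilins, read 302, 121 and 109 in E1 and 204, 191 and 192 in HCT116. It stood at -0.24 (SE 0.33) with all arrays and at 0.55 with E1 array 1 alone, and a second PLXND1 probe set showed the same order within E1, at 51.1, 15.2 and 13.8.

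The same split ran through 6 of the 59 genes. PLXNB2, EPHB4, EPHA2, PLXND1, UNC5B and SEMA6B were each more than 2-fold higher on E1 array 1 than on E1 arrays 2 and 3, on the log2(intensity + 32) scale. That is 10.2% of the guidance genes and 4.51% of all genes. None of the 59 was more than 2-fold lower on E1 array 1 than on both E1 arrays 2 and 3. SEMA3C was more than 2-fold lower on E1 array 1 than on E1 array 3 alone, at 26.7 against 143. Of the 6 genes 5 encode receptors, and SEMA6B is a transmembrane semaphorin that read 113, 39.7 and 27.1 in E1 and 100.5, 80.1 and 96.5 in HCT116. Without E1 array 1, PLXNB2, EPHB4, PLXND1, UNC5B and SEMA6B were called lower and SEMA3A higher, where 8.97% of all genes were called, 7.33% lower and 1.64% higher. With E1 array 1 alone, 0 of the 59 genes were called in limma, as were 0.0167% of all genes, and 9 had an unadjusted p under 0.05, 7 higher and 2 lower, against 11.5% of all genes, 4.44% higher and 7.05% lower. The signs turned as well. With 3 E1 arrays 21 of the 59 fold changes were positive and 38 negative, with a median of -0.08. With E1 array 1 alone 38 were positive and 21 negative, with a median of 0.13, against -0.05 over all genes. These arrays are also those that differ in the GAPDH ratio. The part of the ratio in the split was not tested.

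**Figure D3:**
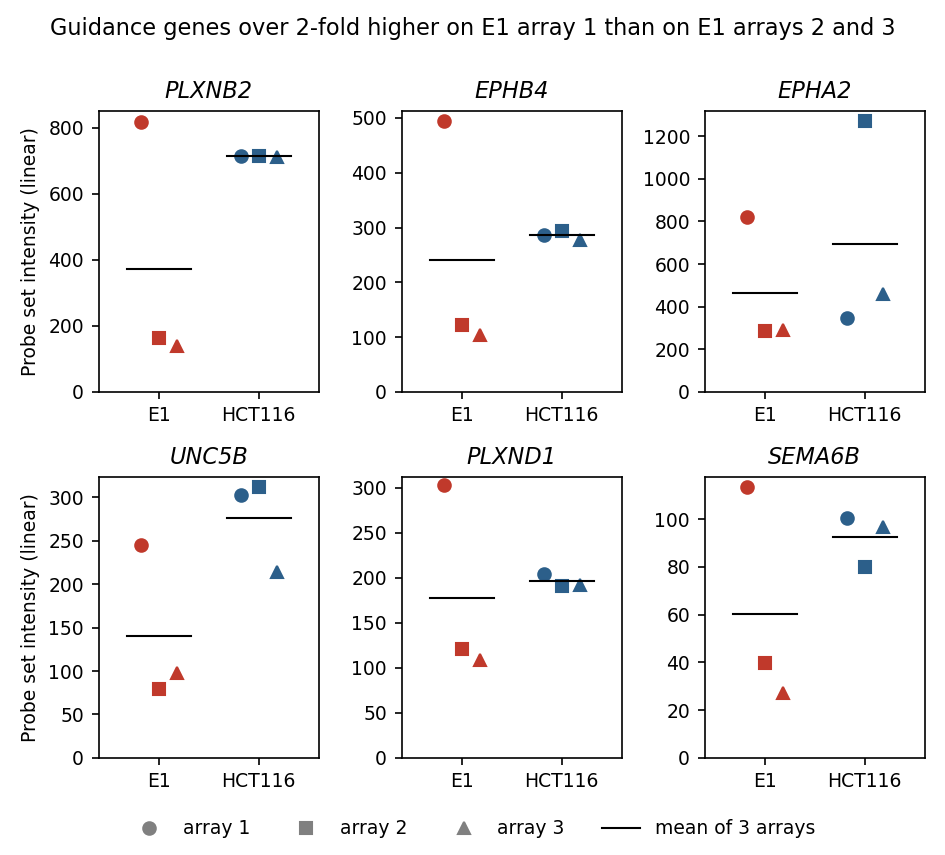
Probe set intensity (linear scale, from 0) of the 6 genes that were more than 2-fold higher on E1 array 1 than on E1 arrays 2 and 3, for 3 E1 arrays (red) and 3 HCT116 arrays (blue); bars are means. For PLXNB2 the E1 arrays read 818, 162 and 138, whereas the HCT116 arrays read 711 to 715.

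Of the ephrins, 2 had an unadjusted p under 0.05, EFNB3 with a higher and EFNA2 with a lower mean in E1, and 0 of 8 were called in limma over all genes. EFNB3, a transmembrane ephrin known as a midline barrier for corticospinal axons in mice, read 80.5, 109 and 93.8 in E1 and 40.6, 60.4 and 19.0 in HCT116. The lines did not overlap, with a log2 fold change of 0.85 (SE 0.24, unadjusted p = 0.0103, limma adjusted p = 0.217) and of 0.68 with E1 array 1 alone. Another EFNB3 probe set read 10.7 to 12.5 in E1 and 10.1 to 13.5 in HCT116 and stood at 0.00. EFNA2, an ephrin held in the membrane by a lipid anchor, read 4.83, 7.68 and 14.2 in E1 and 19.2, 21.1 and 27.0 in HCT116. It did not overlap, at -0.42 (SE 0.15, unadjusted p = 0.0275), but all 6 values lay below the offset of 32.

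EFNB2, the ligand of EphB4 in the separation of arteries and veins, had 2 probe sets that differed. The one used here read 409, 439 and 650.1 in E1 and 461, 898 and 445 in HCT116, with overlap and a log2 fold change of -0.21 (SE 0.31). The other read 152, 86.4 and 91.3 in E1 and 312, 574 and 286 in HCT116, where every E1 array lay below every HCT116 array. That second probe set stood at -1.54 (SE 0.30, unadjusted p = 0.00206; over single probe sets the limma adjusted p was 0.0976). With E1 array 1 alone it stood at -1.14. EFNA3 read 128, 61.4 and 70.0 in E1 and 195, 122 and 113 in HCT116, at -0.58 (SE 0.27, unadjusted p = 0.0731), where E1 array 1 overlapped. EFNA1, EFNA4, EFNA5 and EFNB1 overlapped between the lines.

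None of the 10 Eph receptors had an adjusted or an unadjusted p under 0.05 in limma, and 0 had arrays that did not overlap. EPHB4, the receptor of ephrin-B2, read 494, 122 and 105 in E1 and 286, 294 and 277 in HCT116. Its log2 fold change was -0.51 (SE 0.50) with 3 arrays, 0.73 with E1 array 1 alone and -1.13 with E1 arrays 2 and 3. A second EPHB4 probe set kept this order within E1, at 128, 42.3 and 37.0, against 88.0, 64.3 and 87.5 in HCT116. EPHA2, an Eph receptor of many epithelial tumours, read 823, 286 and 288 in E1 and 349, 1271 and 459 in HCT116, so that HCT116 array 2 stood apart within its own line. Its value was -0.50 (SE 0.57) with all arrays and 0.04 without HCT116 array 2. EPHB3, an EphB receptor of the crypt base in mice, read 98.8, 38.0 and 56.9 in E1 and 94.6, 49.4 and 69.9 in HCT116. EPHB6, which lacks kinase activity, read 80.8, 55.5 and 74.8 in E1 and 71.4, 72.0 and 69.9 in HCT116. EPHA3, EPHA4 and EPHA7 read at most 19.0 on any array.

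No Slit or Robo gene had an adjusted or an unadjusted p under 0.05 in limma, and their log2 fold changes lay between -0.18 and 0.17. SLIT1 read 104, 76.1 and 117 in E1 and 76.8, 82.6 and 90.9 in HCT116, at 0.17 (SE 0.16). ROBO4, the Robo of endothelial cells, read 72.3, 69.7 and 48.2 in E1 and 67.1, 62.2 and 75.7 in HCT116, at -0.08 (SE 0.16), a value that was 0.07 with quantile normalization or with array medians subtracted. ROBO1, a Slit receptor, read at most 6.60 on any array. Within the spread of 3 arrays a line, a difference of these sizes could not be told from 0.

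In the netrin group, UNC5B and NTNG1 were lower at an unadjusted p under 0.05 and 0 of 7 genes were called in limma over all genes. UNC5B, a netrin receptor that triggers apoptosis when its ligand is absent, read 245, 79.4 and 97.7 in E1 and 302, 312 and 214 in HCT116. E1 array 1 lay within the range of HCT116. The log2 fold change was -0.94 (SE 0.36, unadjusted p = 0.0362, limma adjusted p = 0.309) with all arrays, -0.14 with E1 array 1 alone and -1.34 with E1 arrays 2 and 3. A second UNC5B probe set repeated the split, at 167, 8.84 and 9.42 in E1 and 184, 233 and 120 in HCT116. NTNG1, a netrin-G that is tied to the membrane and does not bind DCC, read 52.5, 45.8 and 37.0 in E1 and 76.5, 59.6 and 77.9 in HCT116. It did not overlap, at -0.42 (SE 0.15, unadjusted p = 0.0276) and -0.29 with E1 array 1 alone. DCC read 36.4, 58.2 and 27.5 in E1 and 34.7, 32.8 and 43.8 in HCT116, and NTN1, its ligand, read 44.4, 21.2 and 16.2 in E1 and 34.5, 55.7 and 22.9 in HCT116, with overlap in both genes. UNC50, the Golgi protein outside the netrin pathway, read 460.2, 541 and 849 in E1 and 360, 470 and 383 in HCT116, at 0.54 (SE 0.24, unadjusted p = 0.0661).

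**Figure D4:**
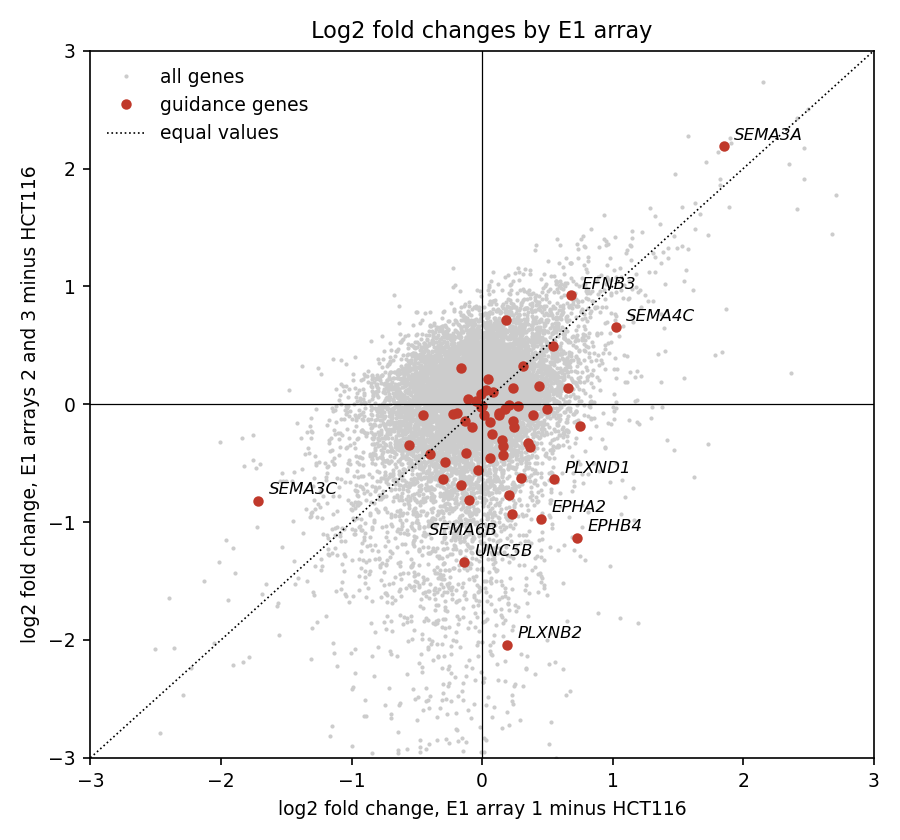
Log2 fold change against HCT116 of E1 array 1 (x axis) and of E1 arrays 2 and 3 (y axis) for all genes (grey) and the 59 guidance genes (red), with the dotted line marking equal values; both axes use the same 3 HCT116 arrays, and 59 genes lie outside the plotted range of -3 to 3. SEMA3A, at 1.85 and 2.19, lies near the dotted line, whereas PLXNB2, at 0.19 and -2.04, lies far below it.

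The probe sets that were not used are a second reading of 28 of the genes, since 31 have 1 probe set. Of 36 such probe sets, 21 had the sign of the one used and 15 the opposite. Only 2 of the 36, in EFNB2 and UNC5B, had a mean intensity of at least 100, and both had the same sign as the one used. Of the 36, 4 had an unadjusted limma p under 0.05, where 16.5% of all probe sets did. They are those of SEMA3C, SEMA3F, SEMA4F and EFNB2 given above. All 4 were lower in E1, and over all genes 9.7% were lower and 5.29% higher at that level. The 1 member probe set called in the fit over single probe sets was that of SEMA3A, against 0.77% of all probe sets.

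Genes that act with these cues and receptors inside the cell were read from 3 lists, of which 76 genes were measured. None of the 76 was called in limma over all genes, and 13, or 17.1%, had an unadjusted p under 0.05, against the 15% of all genes; E1 was higher in 5 and lower in 8. Their median log2 fold change was 0.05, against -0.01 over all genes. Of 25 semaphorin and plexin partners 5 passed that level, with 2 higher and 3 lower in E1. DPYSL2, which encodes the collapsin response mediator CRMP2, read 377, 331 and 515 in E1 and 267, 202 and 247 in HCT116, at 0.69 (SE 0.20, limma adjusted p = 0.227). GSK3B, the kinase that phosphorylates CRMP2, read 85.8, 128 and 109 in E1 and 202, 156 and 165 in HCT116, at -0.57 (SE 0.17, limma adjusted p = 0.239). Neither gene overlapped between the lines. RRAS, a small GTPase switched off by plexins, read 195, 9.37 and 22.4 in E1 and 183, 354 and 243 in HCT116, the split of E1 arrays again.

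Of 24 Eph and ephrin partners, 5 had an unadjusted limma p under 0.05, or 20.8%, against 15% of all genes. Of these, 2 were higher and 3 lower in E1. ABL2, a kinase that binds Eph receptors, read 51.9, 52.7 and 55.6 in E1 and 96.1, 86.6 and 129 in HCT116, at -0.66 (SE 0.16, limma adjusted p = 0.173) and -0.68 with E1 array 1 alone. PICK1, a PDZ protein that binds ephrin-B and Eph tails, stood at -0.43 (SE 0.14). It read 69.9, 67.6 and 51.6 in E1 and 87.4, 103 and 96.6 in HCT116. ADAM10, the protease that cuts ephrins after Eph binding, stood at 0.71 (SE 0.25). It read 1159, 964 and 1850 in E1 and 705, 810 and 791 in HCT116. Of 27 Slit, Robo, netrin and DCC partners, 3 had an unadjusted limma p under 0.05, or 11.1%, against 15% of all genes. Of these, 1 was higher and 2 were lower in E1. The actin regulator EVL read 124, 103 and 108 in E1 and 78.1, 82.9 and 60.1 in HCT116, at 0.45 (SE 0.15). Its relative VASP read 477, 65.3 and 32.7 in E1 and 452, 789 and 423 in HCT116, at -1.94 (SE 0.75). CASP9 read 177, 73.1 and 107 in E1 and 238, 191 and 186 in HCT116, at -0.70 (SE 0.26). With E1 array 1 alone EVL stood at 0.57, VASP at -0.15 and CASP9 at -0.18.

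One partner was called at a single probe set, where 0.77% of all probe sets were called, and it is named after its values were seen. MET, the hepatocyte growth factor receptor, forms complexes with class B plexins. One MET probe set read 40.8, 28.0 and 29.3 in E1 and 145, 218 and 152 in HCT116, at -1.64 (SE 0.18; the limma adjusted p across single probe sets was 0.0247), and -1.47 where E1 array 1 stood for the line. The brightest MET probe set, which stood for the gene, read 765, 955 and 1559 in E1 and 979, 1178 and 795 in HCT116, at 0.10 (SE 0.29). The other 2 read 476, 159 and 94.7, and 388, 160 and 80.8, on E1 arrays 1 to 3, against 729, 728 and 606, and 536, 689 and 596, in HCT116. Those 2 stood at -1.64 and -1.61 and were not called (limma adjusted p of 0.201 and 0.187 across single probe sets). With E1 array 1 alone they stood at -0.50 and -0.60, so most of their change came from E1 arrays 2 and 3. Of the 4 MET probe sets 3 thus read lower on every E1 array than on any HCT116 array, but only 1 was called. The brightest did not read lower in this way.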

How the data were processed

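The values are intensities on a linear scale that the authors deposited for each probe set on each array; how they were summarized, background-corrected or scaled is not stated. Of 22283 probe sets, 68 controls, 1043 with several symbols and 2107 without a listed symbol were left out of the gene-level fit. For each of 11963 genes the probe set whose log2(intensity + 32) had the highest mean was used, without normalizing further. The comparison of E1 with HCT116 used lmFit and eBayes of limma 3.58.1 under R 4.3.3 (two-sided), and scripts were tested on simulated data. Precision is limited by 3 arrays per line. Symbols come from the platform annotation, and all 59 members were found by Entrez number in RefSeq's table for GRCh38.p14, which gave chromosomes. Every column belonged to 1 of the 6 arrays.

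The members and lists were chosen with earlier results of these data known. Arrays are shown for members called or with an unadjusted p under 0.05, for the 2 brightest of each family and for the 3 partner genes per list with the smallest p; other members and MET were named beside these after their values had been seen. The alternatives were quantile normalization, subtracted array medians, offsets of 1 and 100, the lowest 40% of genes left out, the mean of probe sets, no probe sets ending in _x_at or _s_at, a trended robust fit, the replicate number as a block, the GAPDH 3'/5' ratio as covariate, E1 array 1 alone, each array left out, single probe sets and a threshold of 0.01.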

Additional observations from a re-analysis of the deposited data

Results flagged for a closer look

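Control probe sets, which the main comparison of genes does not use, read apart on E1 arrays 2 and 3. Their GAPDH 3'/5' ratios were 34.1 and 71.9 and their ACTB ratios 46.1 and 89.9, above the HCT116 arrays, at 0.774 to 0.811 for GAPDH and 0.930 to 1.00 for ACTB. With 3 arrays per line no single value was tested for standing apart from its line.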

How the results depend on the processing

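SEMA3A stayed higher in E1 under all 18 alternatives, though those that change only probe set choice, genes fitted, error model or block could not alter its value. It was the 1 member called with quantile normalization, array medians subtracted, an offset of 1, dim genes left out, the mean of probe sets, a trended robust fit and single probe sets. No member was called (0) with an offset of 100 (SEMA3A at 1.53, adjusted p = 0.102), with _x_at and _s_at probe sets left out (2.08, adjusted p = 0.0572), with E1 array 1 alone (1.85, adjusted p = 0.164), with the GAPDH ratio as covariate (1.77, adjusted p = 0.269) or at a threshold of 0.01; 5 to 9 members had an unadjusted p under 0.05 in these limma fits. The cause was not tested. With the replicate number as a block 0 members were called and SEMA3A stood at 2.08 (limma adjusted p = 0.183). Same-numbered arrays deviated from their line means with correlations of -0.06, -0.36 and -0.12, none best with its own number. Deviations within 3 arrays sum to 0, and E1 array 1 stood apart, so these values cannot tell whether same-numbered arrays were handled together. Leaving out 1 array gave 0 to 6 members called and a SEMA3A value of 1.79 to 2.25; leaving out E1 array 1 gave the 6. Of the 76 partner genes 0 were called in the main setting, where 0.418% of all genes were. Without E1 array 1, 10 of the 76 were called, all lower, where 7.33% of all genes were called lower. Over single probe sets 1 was called, in MET, where 0.77% of all probe sets were.

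With E1 array 1 alone the sign turned for PLXNB2 (0.19), PLXND1 (0.55), EPHA2 (0.45), EPHB4 (0.73), SEMA6B (0.23) and ROBO4 (0.058). With the GAPDH ratio as covariate these genes stood at 0.18, 0.55, 0.44, 0.72, 0.24 and 0.086. That ratio was high only on E1 arrays 2 and 3, so the covariate fit rests largely on E1 array 1. It is no separate check of the sign. Without _x_at and _s_at probe sets PLXNB2 stood at 0.044, NRP2 at 0.24 and PLXNA1 at -0.31. Quantile normalization gave PLXND1 0.013 and ROBO4 0.074, and subtracted medians ROBO4 0.069. The mean of probe sets gave PLXNA1 -0.091 and SEMA3F -0.12. With 1 array left out PLXNA1 ran from -0.19 (without E1 array 1) to 0.43, SEMA3F from -0.037 (without E1 array 1) to 0.31, ROBO4 from -0.15 to 0.040 (without E1 array 3), EPHA2 from -0.97 to 0.035 (without HCT116 array 2) and EFNB2 from -0.40 to 0.10 (without HCT116 array 2). Of the 59 members 20 kept their sign under every alternative, though a change of only the error model or genes fitted could not turn it. Subtracting array medians moved the median of all genes to 0.14, against -0.01, and the members to 37 positive and 22 negative; quantile normalization gave 30 and 29.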
